A study of Mus musculus with 6 samples.

Results

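The 83 genes described here encode the proteins of the cytoplasmic ribosome. They are the rows of the count table whose symbols follow the naming of ribosomal proteins (Rpl or Rps and a number), together with Rplp0, Rplp1, Rplp2 and Rpsa and without Rps27l, and with at least 20 unique molecular identifiers (UMIs, each counting 1 captured transcript) over all barcodes. Of the 27998 rows of the table, 83 matched and all 83 reached 20 UMIs. The row closest to that limit was Rpl3l with 39 UMIs, and the next lowest, Rpl10l, stood far above it. The samples were germ cells of fetal mouse testes at embryonic day 14.5, sorted by flow cytometry for the red fluorescent protein tdTomato. There were 3 samples of embryos labelled Rb1 cKO, in which the retinoblastoma gene is knocked out conditionally, and 3 control samples labelled wildtype. All were male, of mixed strain (C57/B6 and 129). The labels name neither the Cre driver nor the deleted part of Rb1, and they do not say whether the controls carried the driver or whether the replicates came from separate animals. The design text compares the genotypes, and the values below give the ribosomal protein genes in that comparison and across the 5 clusters into which the authors had divided the cells.

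A ribosome has a small subunit, which decodes the messenger RNA and holds the Rps proteins, and a large subunit, which joins amino acids and holds the Rpl proteins. Nearly every protein is present once per ribosome and is encoded by 1 expressed gene, surrounded in mammalian genomes by many processed pseudogenes, the intronless copies made by reverse transcription of its messenger RNA. Ribosomal protein messages begin with a terminal oligopyrimidine tract, through which mTOR signalling controls their translation as a group. A few genes have a second functional copy. In mice the copies Rpl10l and Rpl39l are known from male germ cells, where autosomal copies can stand in for partners on the X chromosome.

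The 6 libraries held 480, 945 and 1164 cells in cKO and 781, 430 and 1354 cells in control after 6 of 5160 barcodes had been removed. Their summed depth was 7807571, 12598312 and 16810763 UMIs in cKO and 10943183, 7598511 and 17323152 UMIs in control. Levels are given as CPM, the count that a gene would have in 1e+06 UMIs, and since the chemistry tags 1 end of each transcript they were not divided by transcript length. Rb1 itself had 3.35, 3.73 and 3.64 CPM in cKO, against 10.3, 8.65 and 7.13 CPM in control. Each cKO library was below each control library, with 27 to 60 UMIs in cKO and 67 to 119 in control, and the log2 fold change was -1.27 ± 0.19 (SE; edgeR adjusted p = 0.415). Tags at the 3′ end can lie outside the deleted part and then say nothing of the deletion. The 8 germ cell markers, such as Dazl and Ddx4, summed to 8562 to 9442 CPM in cKO and 8699 to 9574 CPM in control. Summed markers of other cell types stayed at or under 76.0 CPM in every library, and 2 of the 5 Leydig cell markers were at 0. Among them the platelet list had 0.476 to 2.05 CPM in cKO, while it reached 52.5 CPM in control 2 and had 1.27 and 1.28 CPM in the other controls. The erythroid list was lowest in cKO 1, at 6.15 CPM, against 24.1 and 21.0 CPM in the other cKO libraries and 22.0 to 32.8 CPM in control. The Sertoli cell list had 5.41 to 8.57 CPM in cKO, while it had 18.8 CPM in control 3 and 4.20 and 4.74 CPM in the other controls. The stroma list had 2.86 to 3.71 CPM in cKO, while it had 8.69 CPM in control 2 and 3.02 and 3.06 CPM in the other controls. The part of these differences in the results was not tested. Between libraries, 9 barcode sequences were shared, by 18 barcodes in all.

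Some results turn on pairs of nearly identical sequences, which are shown first. The stalk gene Rplp0 (chromosome 5, 115559467 to 115563727, plus strand, GRCm38) has a processed pseudogene, Gm8730 (chromosome 8, 102864845 to 102865798, minus strand), with a row of its own in the count table. Over 954 aligned bases of the coding sequence 12 differed, and the last 170 bases before the end of the coding sequence were identical. The stretch below runs from base 691 to base 810 of the coding sequence and holds the last of these differences. The capitals mark the bases that differ, A696G and A784G, counted from the start codon with the Rplp0 base first.
Rplp0: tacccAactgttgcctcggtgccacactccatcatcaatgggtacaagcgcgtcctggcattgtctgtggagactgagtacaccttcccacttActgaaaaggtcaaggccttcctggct
Gm8730: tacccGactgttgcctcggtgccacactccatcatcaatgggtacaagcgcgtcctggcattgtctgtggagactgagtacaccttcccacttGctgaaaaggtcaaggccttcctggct
The X-linked Rpl39 (X, 37082520 to 37085402, minus strand) and its autosomal copy Rpl39l (chromosome 16, 10170226 to 10174911, plus strand) are shown in full over their coding sequences, because they differ enough to be counted apart. Capitals mark the 23 of 156 bases that differ, and 3 of the 51 codons encode another amino acid.
Rpl39: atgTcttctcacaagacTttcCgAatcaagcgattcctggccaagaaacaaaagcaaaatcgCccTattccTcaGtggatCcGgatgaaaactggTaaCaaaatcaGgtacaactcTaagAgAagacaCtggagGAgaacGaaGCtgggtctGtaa
Rpl39l: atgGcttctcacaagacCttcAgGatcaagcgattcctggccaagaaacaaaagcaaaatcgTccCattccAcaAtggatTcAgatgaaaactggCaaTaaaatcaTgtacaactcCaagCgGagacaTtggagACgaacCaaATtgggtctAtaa
All sequences are from the transcripts of the GENCODE annotation of GRCm38.

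Ribosomal protein transcripts were a large part of each library. Their share was 27.3, 27.4 and 29.9% in cKO, against 28.8, 28.3 and 29.6% in control. The groups overlapped: cKO 1 and cKO 2 were lowest and cKO 3 highest of the 6, and the means were 28.2 ± 1.46% in cKO and 28.9 ± 0.656% in control (SD, n = 3 each). Per cell this came to 4435, 3657 and 4313 UMIs in cKO and 4029, 5001 and 3786 UMIs in control. The share also hardly moved between the clusters of the authors. Over the 6 libraries it averaged 28.7 ± 1.03% in cluster 0, 28.4 ± 1.14% in cluster 1, 28.6 ± 0.977% in cluster 2 and 28.2 ± 1.26% in cluster 3 (SD, n = 6). Within a library clusters 0 to 3 spanned 0.275 to 1.44 percentage points, less than the distance between the lowest and the highest library in each of these clusters. Cluster 4 had 20 cells or more in 2 libraries, with shares of 29.8% in cKO 3 and 29.4% in control 3.

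**Figure D1:**
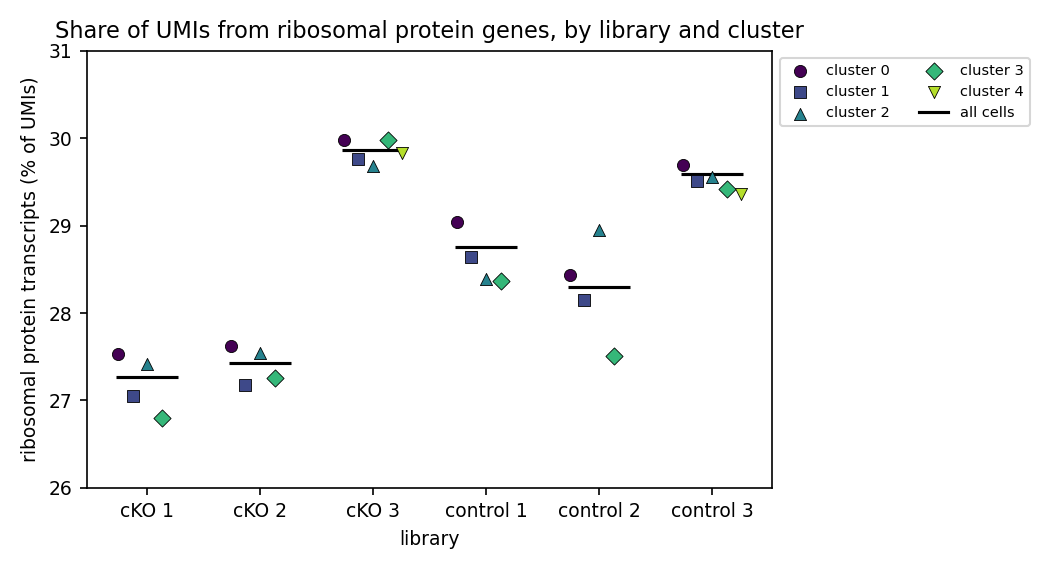
Ribosomal protein transcripts as a percentage of UMIs (vertical axis, from 26 to 31%) in the 3 cKO and 3 control libraries (horizontal axis). Symbols are the authors' clusters with at least 20 cells and black lines all cells of a library; symbols of 1 library lie close together, and libraries range from 27.3 to 29.9%.

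No ribosomal protein gene changed past the threshold between cKO and control. edgeR's quasi-likelihood test on counts summed per library tested 11540 genes, 82 of them members; Rpl3l, with 0, 12 and 9 UMIs in cKO and 8, 5 and 5 UMIs in control, fell below the filter on low counts. At a Benjamini-Hochberg adjusted p under 0.05 it called 0 genes, or 0% of those tested, and 0 members. At an unadjusted p under 0.05, 405 genes passed, of which 205 were higher in cKO (1.78% of those tested) and 200 lower (1.73%). Among the members 1 was higher, Rplp0, and 2 were lower, Rpl27 and Rpl15. DESeq2 called 4 genes and 0 members, with 219 genes at an unadjusted p under 0.05. The p-values measure the spread between these libraries, which may be technical.

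Most members had a small negative log2 fold change (cKO over control). It was negative for 69 and positive for 13 of the 82. The members' median was -0.06, while all 11540 genes had a median of 0.00010 and 5776 positive values. The 31 small subunit genes had 28 negative values (median -0.06), and the 46 large subunit genes without the copies had 38 (median -0.06). The median stayed negative whichever library was left out, and its size depended on the library. Leaving out cKO 1, 2 or 3 gave medians of -0.01, -0.08 and -0.11, with 33, 19 and 7 positive values. Leaving out control 1, 2 or 3 gave -0.06, -0.09 and -0.03, with 11, 8 and 23 positive values. In cKO 1, 70 of the 82 members lay below their own mean over the libraries, by a median of 0.14 on the log2 scale, while the median over all genes was 0.0054. In cKO 2 the members were split, with 40 below and 42 above, and in cKO 3 67 were above. In control 1 to 3, 53, 23 and 68 members were above.

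Rpl27, a protein of the large subunit, had the lowest fold change of the members. It had 1110, 981 and 1344 CPM in cKO, against 1470, 1705 and 1393 CPM in control. The groups did not overlap, with cKO 3 close to control 3. For the log2 fold change of -0.41 ± 0.12 (SE), edgeR gave a p of 0.00997 before adjustment and of 0.994 after it. Rpl27-ps3, a processed pseudogene chosen after its values were seen, was identical to the Rpl27 transcript over its own whole length. Its own row had 138, 137 and 148 CPM in cKO and 134, 200 and 113 CPM in control. With these counts added, Rpl27 had 1248, 1118 and 1492 CPM in cKO and 1604, 1905 and 1506 CPM in control, and the log2 fold change was -0.38 ± 0.12 (edgeR adjusted p = 0.994). The groups were apart in this sum too, by little between cKO 3 and control 3.

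Rpl15, also of the large subunit, had the lowest level of the members that are not copies. It had 914, 974 and 939 CPM in cKO, against 1163, 1314 and 941 CPM in control. The cKO libraries lay close together and control 3 lay with them, and the log2 fold change was -0.27 ± 0.11 (SE; edgeR adjusted p = 0.994). Its pseudogene row Gm10020, chosen after the values were seen, took 4.48, 6.16 and 3.30% of the UMIs of the pair in cKO and 2.52, 4.40 and 2.64% in control. With Gm10020 added the log2 fold change was -0.25 ± 0.12 (edgeR adjusted p = 0.994). Rpl9 was the other member with all cKO libraries below all control libraries, at 2411, 2738 and 2719 CPM in cKO and 2877, 2805 and 2754 CPM in control. By this criterion 543 genes had cKO above control (4.71%) and 488 below (4.23%), and among the members these were 1 above and 2 below.

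The other low and high ends of the list overlapped between the groups. Rpl23a, of the large subunit near the exit of the nascent chain, had 3593, 3397 and 4388 CPM in cKO and 4350, 4483 and 4279 CPM in control, with a log2 fold change of -0.20 ± 0.10 (SE). Rpl35, its neighbour there, had 2276, 2324 and 2578 CPM in cKO and 1772, 2454 and 2123 CPM in control, with control 1 far below the rest, and 0.18 ± 0.11. Rpl5, which carries the 5S RNA into the large subunit together with Rpl11, had 1784, 1982 and 1968 CPM in cKO and 1826, 1765 and 1972 CPM in control, and 0.04 ± 0.07. Its partner Rpl11, chosen after its values were seen, had -0.03 ± 0.08. The groups overlapped for each of these 4 genes, and no adjusted p of edgeR was below 0.994.

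Rplp0 encodes the base of the ribosomal stalk, onto which the Rplp1 and Rplp2 proteins dock to recruit translation factors. It had the highest fold change of the members. It had 3808, 3830 and 3363 CPM in cKO, against 3086, 3228 and 3296 CPM in control. All cKO libraries lay above all control libraries, cKO 3 by little, and for the log2 fold change of 0.19 ± 0.08 (SE) edgeR gave a p of 0.0276 before adjustment and of 0.994 after it. The other stalk genes did not share this order. Rplp1 had 4121, 4458 and 4967 CPM in cKO and 4589, 4567 and 5035 CPM in control, and Rplp2 had 4586, 4668 and 5480 CPM in cKO and 4953, 5051 and 5406 CPM in control. Their log2 fold changes were -0.07 ± 0.09 and -0.06 ± 0.09.

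The pseudogene row Gm8730 differed between libraries far more than Rplp0 did. It had 263, 251 and 240 CPM in cKO, against 964, 1144 and 232 CPM in control. Control 1 and control 2 stood high, and control 3 lay with the 3 cKO libraries and below them. Its log2 fold change was -1.63 ± 0.64 (SE; edgeR adjusted p = 0.994). Without control 3 this became -2.07 with an adjusted p of 3.6e-07, and the adjusted p ranged from 3.6e-07 to 0.99996 over 15 alternatives. Of the UMIs of both rows, Gm8730 held 6.45, 6.16 and 6.67% in cKO, against 23.8, 26.2 and 6.58% in control. The widest exact (Clopper-Pearson) 95% interval for counting error, that of control 2, ran from 25.7 to 26.6%, far less than the step between the high and the low libraries. The means were 6.43 ± 0.252% in cKO and 18.8 ± 10.7% in control (SD, n = 3 each), with a two-sided exact permutation p of 0.2 where 0.1 is the smallest possible.

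Added together, the rows no longer set the groups apart. The sum was 4071, 4081 and 3603 CPM in cKO and 4050, 4372 and 3528 CPM in control. The groups overlapped, and the log2 fold change of the sum was -0.02 ± 0.09 (SE; edgeR adjusted p = 0.994), so that the sign of the Rplp0 difference turned. Reads from the identical last 170 bases cannot be told apart by sequence, and the sources used here do not say how such reads had been assigned.

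**Figure D2:**
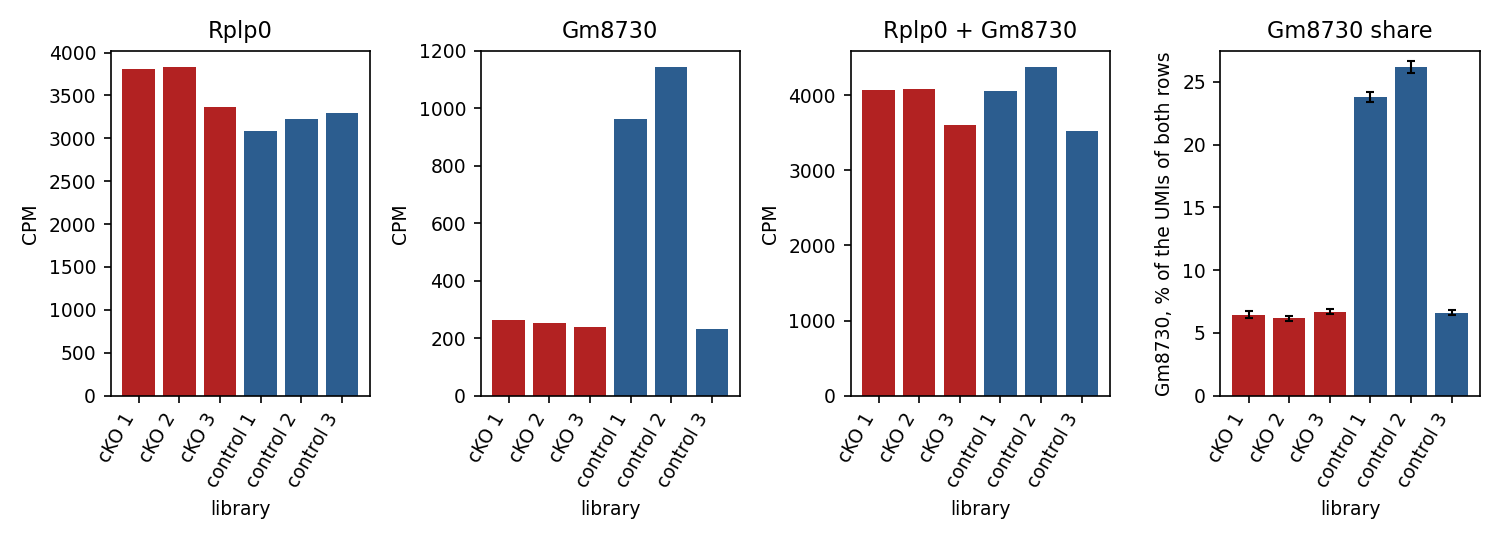
Rplp0, Gm8730 and their sum in CPM, and the share of Gm8730 in the UMIs of both rows (%), as 1 bar for each library, cKO in red and control in blue; the error bars on the share are exact 95% intervals for counting error. Gm8730 lies at 240.1 to 263 CPM in the cKO libraries, and at 964 and 1144 CPM in control 1 and control 2 and 232 CPM in control 3.

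The high share of Gm8730 was spread over the cells of control 1 and control 2 and their clusters. In clusters 0 to 3 the Gm8730 share was 5.84 to 6.91% in the cKO libraries, against 23.3 to 27.8% in control 1 and control 2 and 6.37 to 6.84% in control 3. Among single cells with at least 20 UMIs of the pair, the median share was 6.33, 6 and 6.25% in cKO and 23.6, 25.9 and 6.25% in control. The interquartile range ended at 8.16, 8.23 and 8.82% in the cKO libraries, while it began at 20.3% in control 1 and 22.8% in control 2 and ended at 9.09% in control 3. These values came from 427 to 1306 cells a library, and 3 to 48 cells a library had too few UMIs. Annotated pseudogene transcripts of 35 rows, Rpl6l among them, matched a member's transcript at 90% identity or more over at least 80% of the pseudogene's own length. Of these 35 rows, 14 had at least 1000 UMIs. The share of the pair varied between the highest and the lowest library by a median of 1.54-fold over these 14. Only Gm8730 and Gm10036, a copy of Rpl11, varied more than 3-fold.

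Among the members with the most UMIs were Rps18, Rpl13, Rpl41, Rps14 and Rps23. Rps18, at the head of the small subunit, had 6863, 7791 and 8242 CPM in cKO and 8103, 7719 and 8084 CPM in control. Rpl13 had 6778, 8008 and 7067 CPM in cKO and 7553, 7450 and 6737 CPM in control. The groups overlapped for all 5, and their log2 fold changes lay between -0.08 (Rps23) and 0.01 (Rpl13). In all, 78 members stood at 1000 CPM or more, and the other 5 were copies.

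The 4 members on the X chromosome are Rps4x, Rpl10, Rpl36a and Rpl39. Rps4x, of the small subunit, had 2873, 3089 and 3104 CPM in cKO and 3081, 2953 and 3150 CPM in control. Rpl10, which completes the large subunit at a late step, had 1779, 2010 and 1731 CPM in cKO and 1807, 1972 and 1712 CPM in control. Rpl36a had 2183, 2110 and 2675 CPM in cKO and 2376, 2307 and 2658 CPM in control. The groups overlapped for each, and the 4 log2 fold changes lay between -0.08 (Rpl36a) and 0.01 (Rpl10).

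The shortest members, chosen as a set after their values were seen, varied most between libraries, in a way that did not follow the genotype. Of the 80 members with a mean of at least 100 CPM and an annotated coding length, 10 had 300 coding bases or fewer: Rpl41, Rpl39, Rpl39l, Rps29, Rps28, Rpl38, Rps21, Rps27, Rpl37a and Rpl37. The standard deviation of log2 CPM over the 6 libraries had a median of 0.33 in these 10 (range 0.22 to 0.60) and of 0.10 in the 70 longer members (range 0.04 to 0.29). Rps29, a small zinc-binding protein of the small subunit, had 4179, 2040 and 5637 CPM in cKO and 3038, 2783 and 5826 CPM in control. Rps28 had 5614, 2557 and 7437 CPM in cKO and 4243, 3854 and 6616 CPM in control. Rpl38 had 2895, 1617 and 3713 CPM in cKO and 2236, 2169 and 3760 CPM in control. In all 3 genes cKO 2 was lowest, cKO 3 and control 3 were highest, and the groups overlapped.

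Across the 10 short members cKO 2 was the lowest library for 9 and cKO 1 for Rpl39l. The highest library was cKO 3 for 7 and control 3 for 3. Relative to each gene's mean, their median log2 level was 0.03, -0.51 and 0.36 in cKO and -0.09, -0.12 and 0.30 in control. Their median log2 fold change was -0.02, since low and high libraries fell in both groups. Among the 70 longer members the order was another: cKO 1 was lowest for 56 and control 3 highest for 34. Over the 80 members the rank correlation between coding length and this standard deviation was -0.62 (Spearman, a description over genes that share the same 6 libraries). With transcript length it was weaker, at -0.44. Over 1361 other genes of at least 100 CPM it was -0.09 with coding length and -0.06 with transcript length. The 91 short genes among them had a median standard deviation of 0.13, and 61 of these were highest in control 3, while 33 were lowest in cKO 1 and 25 in cKO 2. Usmg5, a small subunit of ATP synthase chosen after its values were seen, had 634, 458 and 769 CPM in cKO and 577, 604 and 806 CPM in control, the same lowest library as the short members. What sets these libraries apart was not tested.

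**Figure D3:**
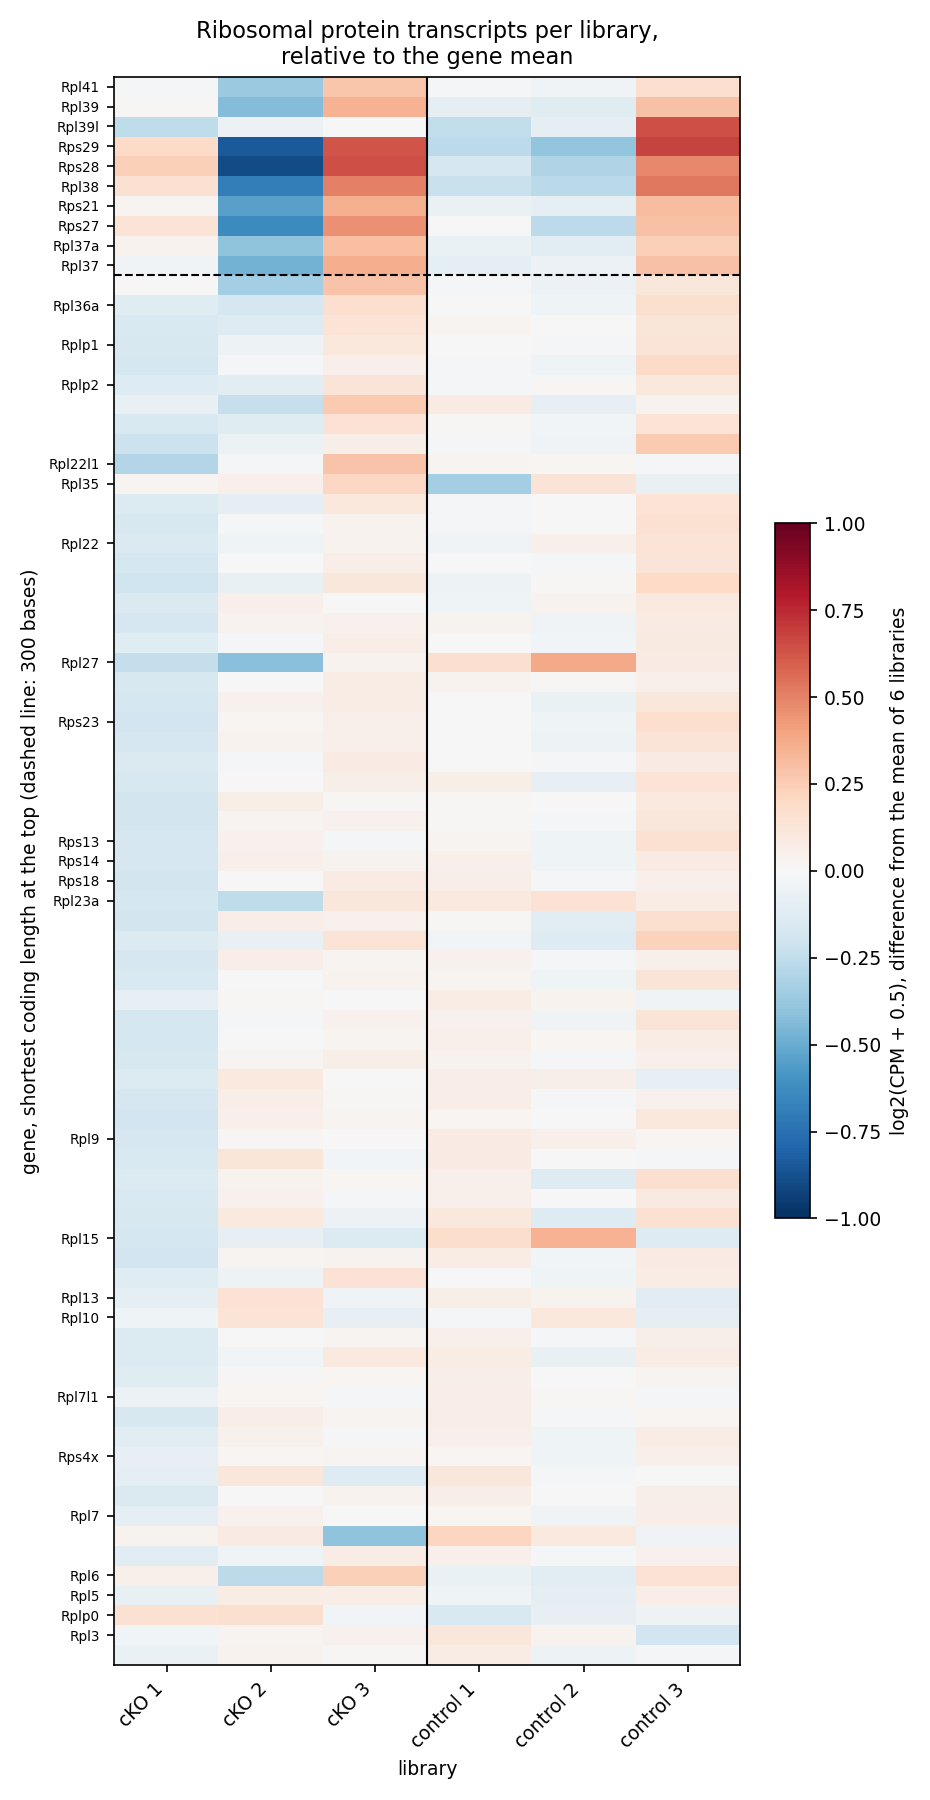
Level of each member of at least 100 CPM in each library (columns, cKO left and control right) as the difference of log2(CPM + 0.5) from the mean of the 6 libraries. Rows run from the shortest coding length at the top, with names for some of them; above the dashed line at 300 bases cKO 2 is blue (low) and cKO 3 and control 3 are red (high), and below it most rows are faintly low in cKO 1.

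**Figure D4:**
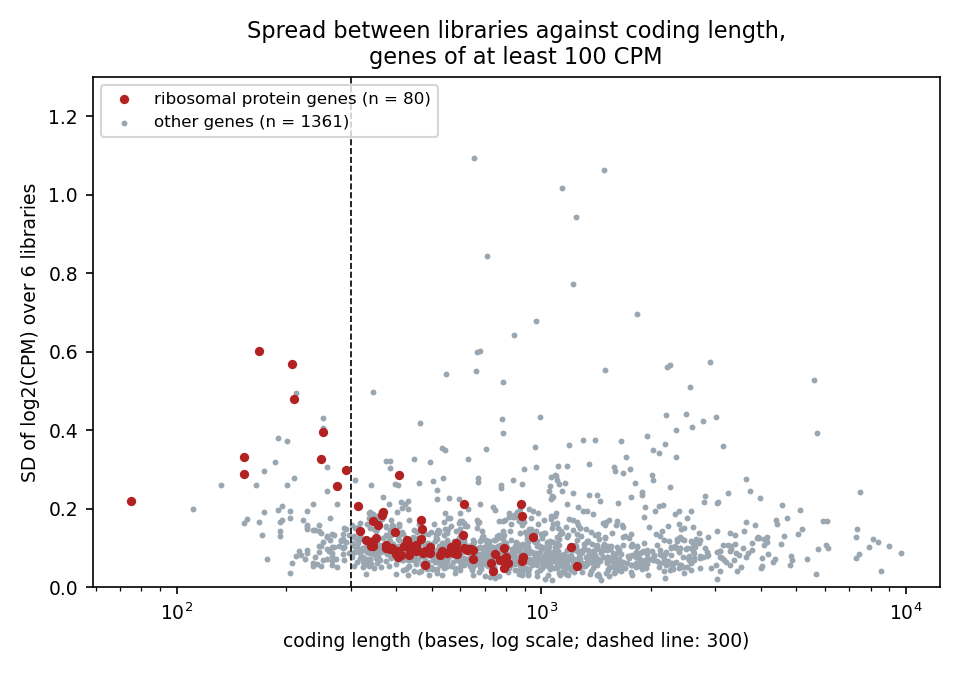
Standard deviation of log2 CPM over the 6 libraries (vertical axis) against coding length in bases (horizontal log axis) for 80 ribosomal protein genes (red) and 1361 other genes (grey) of at least 100 CPM. The short members reach 0.60 and the members over 300 bases stay at or under 0.29.

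The members named as copies of another member took a small part of the total. Rpl3l, Rpl6l, Rpl7l1, Rpl10l, Rpl22l1 and Rpl39l together held 0.173, 0.202 and 0.229% of UMIs in cKO and 0.201, 0.204 and 0.202% in control. Rpl22l1, the paralog of Rpl22, held most of it, at a level near that of its partner. It had 1213, 1467 and 1810 CPM in cKO and 1515, 1504 and 1472 CPM in control, while Rpl22 had 1261, 1356 and 1434 CPM in cKO and 1363, 1448 and 1532 CPM in control. The controls lay close together for Rpl22l1 and the cKO libraries on both sides of them. Rpl39l had 148, 171 and 178 CPM in cKO and 150, 166 and 278 CPM in control, and Rpl39 had 2636, 1941 and 3323 CPM in cKO and 2439, 2405 and 3205 CPM in control. Control 3 stood apart for Rpl39l, and its log2 fold change of -0.26 ± 0.26 (SE) became 0.07 without that library.

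Rpl10l, the copy of Rpl10, had 7.20, 7.77 and 14.9 CPM in cKO and 5.76, 9.17 and 22.3 CPM in control. It was highest in cKO 3 and control 3, and its log2 fold change of -0.33 ± 0.60 (SE) became 0.47 without control 3. Rpl7l1, similar to Rpl7, was the steadiest member, at 148, 157 and 153 CPM in cKO and 161, 155 and 152 CPM in control. Rpl7 had 2568, 2843 and 2763 CPM in cKO and 2794, 2684 and 2889 CPM in control. Rpl6l is annotated as a processed pseudogene and was 98.7% identical to the Rpl6 transcript. Its 165, 218 and 186 CPM in cKO and 177, 171 and 173 CPM in control may therefore include reads of Rpl6. Rpl6 itself had 4449, 3590 and 5080 CPM in cKO and 4117, 3990 and 4744 CPM in control. Rpl3l, known from muscle, stayed at 0 to 12 UMIs a library while Rpl3 had 4001, 4150 and 4195 CPM in cKO and 4407, 4163 and 3570 CPM in control. None of these copies or partners passed the threshold.

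Across the clusters of the authors the ribosomal protein genes were nearly flat. Among those of at least 20 CPM the copies Rpl39l and Rpl7l1 moved most. The clusters were made from the same cells and genes, so their differences are a description. Cluster levels are CPM of the cluster's total UMIs in a library, with no further scaling. Clusters 0 to 4 held 2210, 1863, 640, 343 and 98 cells. For 81 members with a mean of at least 20 CPM, the ratio of the highest to the lowest mean over clusters 0 to 3 had a median of 1.04 and was under 1.1 for 79. Among these 79 were the copies Rpl22l1, at 1.02, and Rpl6l, at 1.06. For the 78 members of at least 1000 CPM it reached 1.09 at most, with a median of 1.04, against a median of 1.07 and a maximum of 2.41 over 79 other genes of that level. Other genes at the lower level of Rpl39l and Rpl7l1 were not compared. Rpl9 and Rps13 were the flattest, both at 1.01. Rpl9 averaged 2710 ± 163, 2718 ± 132, 2707 ± 124 and 2722 ± 190 CPM in clusters 0 to 3 (SD, n = 6).

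Rpl39l had the largest ratio, 1.35. It averaged 174 ± 42.8, 204 ± 48.8, 151 ± 32.2 and 153 ± 40.8 CPM in clusters 0 to 3 (SD, n = 6). Cluster 1 was above cluster 0 in all 6 libraries, by 0.09 to 0.33 on the log2 scale, and cluster 2 was below cluster 0 in all 6. Its partner Rpl39 averaged 2693 ± 501, 2599 ± 462, 2642 ± 469 and 2679 ± 505 CPM, and was lower in cluster 1 than in cluster 0 in all 6. Rpl7l1 followed with a ratio of 1.18. It averaged 142 ± 5.73 CPM in cluster 0 and 167 ± 7.80 CPM in cluster 1, and was higher in cluster 1 in all 6 libraries, while Rpl7 was lower there in all 6, at 2809 ± 71.2 CPM in cluster 0 and 2730 ± 86.6 CPM in cluster 1. Of the 81 members of at least 20 CPM, 31 were lower in cluster 1 than in cluster 0 in all 6 libraries. Rpl39 and Rpl7 were among them. The members higher in cluster 1 in all 6 were 8, with Rpl39l and Rpl7l1 among them. The same counts were not made over other genes, so whether they are particular to the members cannot be told. Rpl15 came next in the ratio, with 1079 ± 172 CPM in cluster 1 and 988 ± 177 CPM in cluster 2. Rpl10l, under 20 CPM, had 21.0 CPM in cluster 4 of cKO 3 and 60.6 CPM in cluster 4 of control 3, from 6 and 20 UMIs, and 15.1 and 21.6 CPM in cluster 0 of the same libraries.

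**Figure D5:**
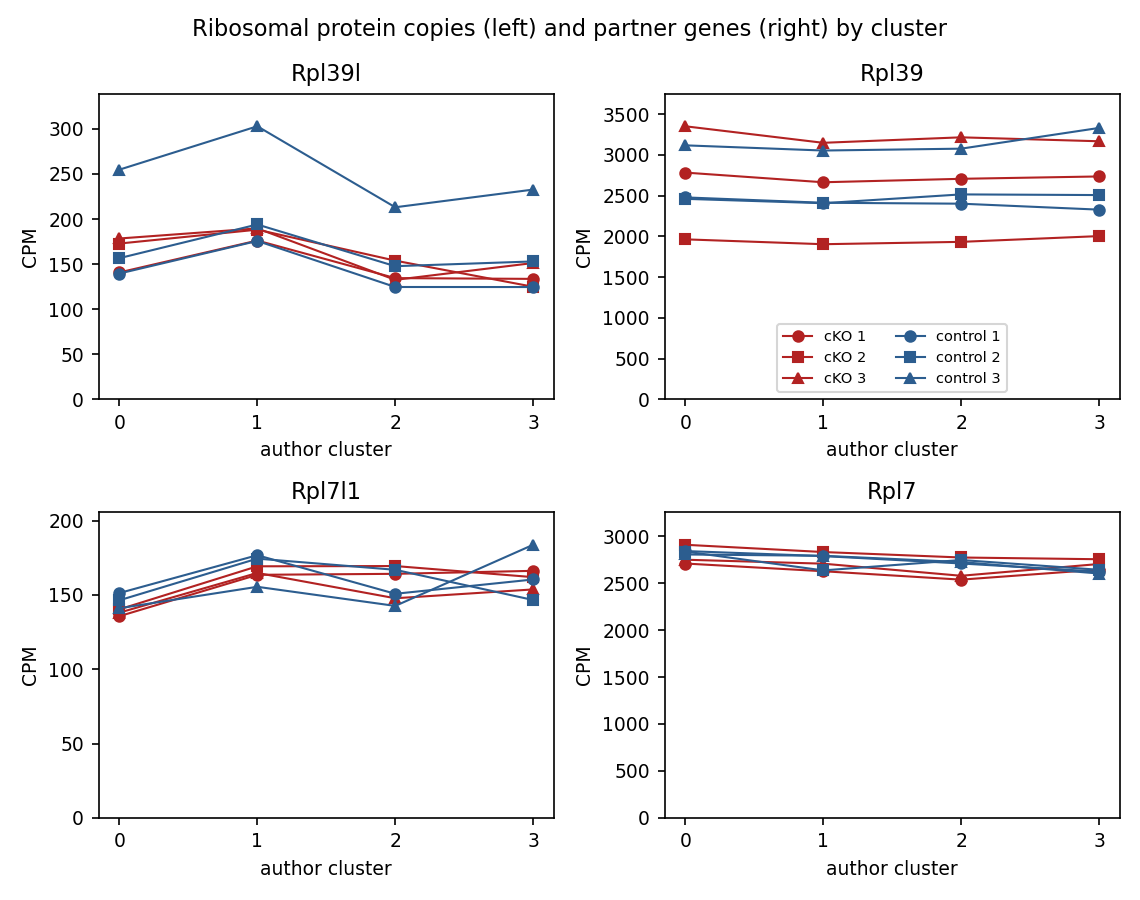
Rpl39l and Rpl7l1 (left) beside their partners Rpl39 and Rpl7 (right) in CPM, from 0, over author clusters 0 to 3, with 1 line for each library, cKO in red and control in blue. Rpl39l and Rpl7l1 are higher in cluster 1 than in cluster 0 in all 6 libraries, and control 3 lies above the others for Rpl39l.

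Within single clusters the comparison of cKO with control gave the same small set of low p-values. In clusters 0 to 3, edgeR tested 10091, 9889, 7895 and 5996 genes and called 0 in each, or 0% of those tested, and 0 members. At an unadjusted p under 0.05 it found 392 genes in cluster 0 (3.88%), 333 in cluster 1 (3.37%), 319 in cluster 2 (4.04%) and 202 in cluster 3 (3.37%). Among the members these were 3, 4, 4 and 3: Rplp0, Rpl27 and Rpl15 in every cluster, and Rpl23a in clusters 1 and 2. The median log2 fold change of the members was -0.06, -0.06, -0.06 and -0.03. In cluster 3 it was 0.04 without cKO 1 and 0.0065 without control 3. The clusters of a library share its preparation, so they are no independent repeats of the comparison. Rpl27 had 1107, 993 and 1337 scaled CPM in cKO and 1477, 1730 and 1378 scaled CPM in control in cluster 0, and its log2 fold changes in clusters 0 to 3 were -0.41, -0.41, -0.46 and -0.41. With every row of any count tested, Rpl27 passed the threshold in clusters 0, 1 and 2, with edgeR adjusted p-values of 0.0028, 0.0246 and 0.0141. In cluster 3 it did not pass, with 0.442. The log2 fold changes in clusters 0, 1 and 2 were then -0.42, -0.40 and -0.44, near those with the filter. Their SEs were 0.08, 0.08 and 0.09, against 0.12, 0.13 and 0.11 with the filter. Over all cells with every such row tested, the lowest edgeR adjusted p of a member was 0.931.

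The other genes of the translation machinery gave no call either. Of 22 other translation genes whose messages also carry the oligopyrimidine tract, 7 were higher in the cKO mean; the median log2 fold change was -0.02, and 0 passed the adjusted threshold by edgeR. Eef1b2, of the elongation factor complex, was at -0.07, and Eif3e, of an initiation factor, and Pabpc1, which binds poly(A) tails, stood highest at 0.06 and 0.04.

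Of 42 ribosome biogenesis genes 11 were positive, with a median of -0.05 and 0 calls. Nob1, the nuclease that finishes the RNA of the small subunit, had 54.3, 53.6 and 52.8 CPM in cKO and 60.7, 64.6 and 66.8 CPM in control, with no overlap and -0.26 ± 0.08 (SE; edgeR adjusted p = 0.994). Nol6, of early ribosome assembly, was lowest at -0.30, and Heatr1 and Rrs1, both of ribosome assembly, were highest at 0.29 and 0.15.

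Of 76 tested genes for mitochondrial ribosomal proteins, which build a separate ribosome inside mitochondria, 20 were positive, with a median of -0.04 and 0 calls. Mrps28 was lowest, at 111, 126 and 118 CPM in cKO and 135, 138 and 175 CPM in control, with no overlap and -0.34 ± 0.11 (SE; edgeR adjusted p = 0.994), followed by Mrpl27 at -0.24. Mrps6 and Mrpl32 were highest, at 0.12 and 0.10. Of 12 tested rows named as pseudogenes of ribosomal proteins 7 were positive, with a median of 0.05 and 0 calls; they ran from Rpl36-ps3 at -0.36 and Rpl13-ps3 at -0.12 to Rpl13a-ps1 at 0.12 and Rps2-ps6 at 0.30.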

How the data were processed

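Single-cell libraries were made with 10x Genomics v2 chemistry from sorted germ cells, per the labels' protocols. The authors deposited whole-number UMI counts for 27998 gene symbols in 5160 barcodes, with each barcode's sample and cluster number. Cell Ranger and Seurat 3.0, with the build mm10 (GRCm38), are named in the submitters' processing notes; the annotation is not given in the sources used here. Barcodes were kept when they had 500 genes or more and mitochondrial UMIs below 10% (5154), no doublet caller was run, and no row named no gene. Members and lists were chosen with earlier results of these data known.

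Counts were summed per library, and per library and cluster where every library had at least 20 cells (clusters 0 to 3). They were tested with edgeR 4.0.16 (quasi-likelihood, two-sided, filterByExpr, TMM factors, no covariate; R 4.3.3), with Benjamini-Hochberg adjustment over all genes tested and a threshold of 0.05, and with DESeq2 1.42.0 as an alternative. The scripts were tested on simulated data. CPM over all cells, and those of Rpl27 in cluster 0, are scaled with the TMM factors. Marker sums and the other CPM within clusters are per total UMIs, with no factor, and shares are of all UMIs. Intervals cover counting error only and leave out the spread between libraries. With totals of 7598511 to 17323152 UMIs, precision for most members was set by the spread between libraries and not by counts. Nothing in the labels says that replicates came from separate animals or that their numbers pair them. Coding lengths and sequences are from GENCODE M21. Named genes were the stalk, Rplp0 with Gm8730, copies with partners, X-linked members, the 6 of highest level, the 5 highest and 5 lowest fold changes, the extremes across clusters (4 and 2), and the 2 highest and 2 lowest of each other list. Rpl6l was added to the copies by its symbol. Genes outside this rule (Rpl11, Rps29, Rpl38, Rps2, Usmg5, Gm10036, Gm10020, Rpl27-ps3, Rpl23a-ps3 and the other short members) were chosen after their values were seen. Some genes that the rule names are not reported here. No batch is given in the labels.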

Additional observations from a re-analysis of the deposited data

How the results depend on the processing

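Members called stayed at 0 over all cells under all 15 alternatives tried, and the count of all genes called, 0 as reported, was 6 with no low-count filter, 4 with DESeq2 and 0 to 4 leaving out 1 library. The median log2 fold change of the members lay between -0.11 and -0.01 when 1 library was left out and moved by less than the spread between libraries under every alternative. Within clusters 0 to 3 the genes called, 0 as reported, numbered 15, 8, 3 and 17 with no low-count filter, and the members called were 1, 1, 1 and 0, each time Rpl27; leaving out 1 library gave 0 to 2 genes in clusters 0, 1 and 2 and 0 to 3 in cluster 3, and 0 members in each. Direction and side of the threshold held in 246 values that leave out 1 library and 406 others. Rb1 passed the threshold with no low-count filter (edgeR adjusted p = 0.0181), with DESeq2 (adjusted p = 0.0250) and without control 3 (edgeR adjusted p = 0.0422). Adding Gm8730 turned Rplp0 to -0.024. Rpl22l1, at 6.1e-06, turned to -0.0064 with RLE size factors, -0.0048 with scaling from other genes, -0.0016 with no filter, -0.00023 with at least 20 UMIs on average, -0.0064 with DESeq2 and -7.9e-05 with all barcodes. Leaving out 1 library turned the direction of 16 genes, which then ranged from -0.024 to 0.12 (Pabpc1), -0.062 to 0.066 (Rpl10), -0.76 to 0.47 (Rpl10l), -0.068 to 0.056 (Rpl13), -0.065 to 0.45 (Rpl13a-ps1), -0.16 to 0.13 (Rpl22l1), -0.058 to 0.091 (Rpl3), -0.23 to 0.15 (Rpl39), -0.42 to 0.071 (Rpl39l), -0.22 to 0.099 (Rpl41), -0.092 to 0.15 (Rpl6), -0.067 to 0.0070 (Rpl7), -0.094 to 0.013 (Rps14), -0.12 to 0.0082 (Rps18), -0.26 to 0.41 (Rps28) and -0.042 to 0.016 (Rps4x). The difference in Gm8730 share, -12.4 points, ranged from -18.6 to -8.77, and that in the share of member UMIs, -0.69 points, was -0.65 with clusters weighted equally and -0.70 without mitochondrial UMIs. The causes were not tested. Rpl3l (39 UMIs) was tested only with no low-count filter, and the 25 cells of control 3 in cluster 3 had a median of 4654 UMIs.

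The replicate numbers were tried as a pairing. With the replicate block edgeR called 0 genes over all cells, 1 gene in cluster 3 and 0 in clusters 0, 1 and 2, and 0 members; the median of the members was -0.06, Rpl22l1 turned to -0.019 and Rps28 to -0.0043. Deviations from the group means of libraries with the same number correlated at -0.25, 0.38 and 0.20 over 6758 genes. For cKO 2 and cKO 3 the highest correlation was with the control of the same number. For cKO 1 it was with control 3, at 0.22. Deviations from a mean of so few libraries depend on each other, so these values cannot tell whether the numbers pair the samples.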

Other observations

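Gm10036 is a processed pseudogene 99.3% identical to the transcript of Rpl11 and was chosen after its values were seen. While Gm8730 was high in control 1 and control 2, Gm10036 was high in control 3 alone. It had 38.7, 43.1 and 49.8 CPM in cKO and 51.0, 34.6 and 245 CPM in control. Of the UMIs of Rpl11 and Gm10036 together, the pseudogene held 1.33, 1.26 and 1.55% in cKO and 1.52, 1.04 and 7.58% in control, so that control 3 stood apart from the other 5 libraries. The sum of both rows was 2910, 3425 and 3211 CPM in cKO and 3367, 3325 and 3234 CPM in control, which overlap. The cause was not tested.

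Rpl23a-ps3, also chosen after its values were seen, held 4.63, 5.89 and 3.96% of the UMIs of Rpl23a and its pseudogene in cKO and 3.76, 4.10 and 3.93% in control, with cKO 2 highest. Rpl27-ps3 held 11.1, 12.3 and 9.92% of its pair in cKO and 8.38, 10.5 and 7.49% in control, again with cKO 2 highest. Rps2, a member of the small subunit outside the rule for named genes, had 4736, 4892 and 3498 CPM in cKO and 5360, 4939 and 4496 CPM in control, with cKO 3 lowest.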
